A study of Homo sapiens with 12 samples.

Results

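The colony stimulating factors and the receptors of blood progenitors were followed across 6 groups of human lymphoid cell lines by RNA-Seq. The 8 genes described were taken by their symbols from the 26210 genes of the deposited expression table, a list drawn up with earlier results of these data known. They are the ligands CSF1, IL34 and CSF2 and the receptors CSF1R, CSF2RB, CSF3R, KIT and FLT3. The groups were 3 untreated classical Hodgkin lymphoma (cHL) lines, L428, L1236 and KM-H2, and 3 groups of non-Hodgkin B-lineage cells: the Burkitt lymphoma line Namalwa, the pro-B lymphoblastic leukaemia line Reh, and Reh treated with phorbol myristate acetate (PMA) at 2 ng/ml. Each group had 2 libraries, 12 in all, made from ribosomal RNA-depleted total RNA with a kit that keeps strand. The study used more than 1 time in PMA, and the sources used here do not say which applies to these libraries. The study asked how long terminal repeats, the promoter ends of old retroviral elements, contribute to gene expression in cHL, with CSF1R as its model gene, and used Reh and Namalwa as controls.

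Each line stands for 1 established culture, so a difference between lines is not a difference between lymphoma types. The Hodgkin lines were grown in IMDM and the control lines in RPMI, so medium and lymphoma type cannot be told apart. Nothing in the labels says that the 2 libraries of a group came from separate cultures, so the p-values measure only the spread between libraries, which may be technical. Values are FPKM, fragments normalised for transcript length and for the fragments mapped in the library, which allows levels of different genes to be compared per length.

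CSF1 and IL34 are the ligands of CSF1R, a type III receptor tyrosine kinase that carries the survival signal of monocytes and macrophages. CSF2 (GM-CSF) acts through a private alpha chain, CSF2RA, and the common beta chain CSF2RB, which is shared with the receptors of IL3 and IL5. CSF3R is the G-CSF receptor of the granulocyte lineage, KIT is the receptor of stem cell factor (KITLG), and FLT3 is the receptor of FLT3LG on early progenitors. Normal mature B cells are not known for CSF1R, and ectopic CSF1R is a known trait of Hodgkin cells.

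The CSF1R gene lies on the minus strand at chr5:149432854-149492935 (hg19). The annotation gives it a distal start at base 149492935 and a proximal start at base 149466117, 26818 bases apart, and the distal start lies 466 bases from the last base of PDGFRB, a second type III receptor. The deposited values are 1 per gene, so they do not separate transcripts by their start. CSF1 lies at chr1:110452864-110473614, IL34 at chr16:70613798-70694585, CSF2 at chr5:131409482-131411863, CSF2RB at chr22:37309670-37336481, CSF3R at chr1:36931644-36948879, KIT at chr4:55523434-55606949 and FLT3 at chr13:28577411-28674729.

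The promoters of CSF1R, FLT3 and CSF2 are shown because the levels of these 3 genes differed between the groups by the tests given further on. RefSeq promoter windows matched 5 of the 8 genes, namely these 3 with CSF3R and KIT. Each sequence is the 250 bases before a RefSeq start, read 5′ to 3′ on the gene's strand, and each matched hg19 at 1 place. The table is of build GRCh38.p14, and the positions are those of the match in hg19. Capitals mark letters of 4 motifs searched on both strands.
CSF1R distal, chr5:149492929-149493178, minus strand: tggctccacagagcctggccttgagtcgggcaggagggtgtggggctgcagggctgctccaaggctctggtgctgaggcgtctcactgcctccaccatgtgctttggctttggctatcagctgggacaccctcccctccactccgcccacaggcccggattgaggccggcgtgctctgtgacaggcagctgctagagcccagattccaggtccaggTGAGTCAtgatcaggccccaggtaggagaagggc
CSF1R proximal, chr5:149466118-149466367, minus strand: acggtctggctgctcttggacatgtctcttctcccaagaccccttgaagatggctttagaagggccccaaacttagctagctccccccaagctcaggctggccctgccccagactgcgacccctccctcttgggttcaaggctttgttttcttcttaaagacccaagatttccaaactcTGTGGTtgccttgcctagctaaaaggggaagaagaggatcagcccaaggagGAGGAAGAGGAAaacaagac
CSF2, chr5:131409232-131409481, plus strand: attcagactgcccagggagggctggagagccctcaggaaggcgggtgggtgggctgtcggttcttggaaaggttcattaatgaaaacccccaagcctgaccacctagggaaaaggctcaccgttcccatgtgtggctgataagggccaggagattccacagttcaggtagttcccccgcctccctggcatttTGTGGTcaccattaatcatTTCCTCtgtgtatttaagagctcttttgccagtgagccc
FLT3, chr13:28674714-28674963, minus strand: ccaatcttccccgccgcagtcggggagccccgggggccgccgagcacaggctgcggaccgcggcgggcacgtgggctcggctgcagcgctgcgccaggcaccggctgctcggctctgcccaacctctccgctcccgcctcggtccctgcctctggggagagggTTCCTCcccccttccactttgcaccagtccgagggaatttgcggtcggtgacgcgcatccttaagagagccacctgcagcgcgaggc
Distances are counted from the RefSeq start, the base next to the window, which for the distal CSF1R window and for FLT3 is not the same base as the start in the annotation. The AP-1 motif (TGANTCA) begins 34 bases before the RefSeq start of the distal CSF1R window, and 6.57% of all 35116 RefSeq windows of the same length held it. The proximal CSF1R window held the PU.1 motif (GAGGAA) 20 and 14 bases before the start, side by side without overlap, and the RUNX motif (TGTGGT) 71 bases before it. The CSF2 window held a RUNX motif 58 bases before the start and a PU.1 motif on the other strand at 39 bases, and the FLT3 window held a PU.1 motif on the other strand at 87 bases. The PU.1 letters were in 23.6% of all windows and the RUNX letters in 11%. The NF-kappaB motif, in 5.67% of windows, was in none of the 4 shown. These matches describe letters and do not show that a factor binds.

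The libraries of 1 group correlated at 0.906 to 0.985 over the genes tested, and the relative sequencing depth, read from the steps of low values, ran from 0.66 to 3.97 of the first KM-H2 library. Total counts are not part of the deposited table. A library of L1236 and a library of L428, those with column number 1, stood apart: 79 genes, none of them among the 8, differed at least 16-fold in the same direction between the 2 libraries of both lines, among them RPS27, RPL9 and PLCG2. Both Reh+PMA libraries were nearer to the pattern of these 2 libraries for 55 and 60 of the 79 genes, against 7 and 5 in untreated Reh, so this library difference and PMA cannot be told apart in that comparison. The KM-H2 libraries of columns 1 and 0 were nearer to the pattern for 27 and 3 of the genes. All 6 Hodgkin cell markers (TNFRSF8, CCL17, FUT4, TRAF1, MIR155HG and IRF4) were at 1 FPKM or more in both libraries of each Hodgkin line, against 2 of 6 in Namalwa and in Reh and 3 of 6 in Reh+PMA. Of 8 B cell markers, 8 reached this level in Namalwa, 7 in Reh, 6 in Reh+PMA, 2 in L428, 2 in L1236 and 3 in KM-H2.

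Of the 8 genes, 3 were at or near 0 in all 12 libraries. IL34 reached at most 0.23 FPKM, in a Reh+PMA library. CSF3R reached 0.08 FPKM, in a KM-H2 library, and KIT reached 0.16 FPKM, in an L428 library. These 3 genes did not reach 1 FPKM in 2 libraries and were not tested. The other 5, CSF1, CSF1R, CSF2, CSF2RB and FLT3, passed this filter. CSF2RB did so in 5 of the 6 groups, while the other 4 genes passed through the groups in which they were high, which bears on their counts of calls. In bulk RNA, a gene used in few cells and less RNA of it in every cell cannot be told apart.

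**Figure D1:**
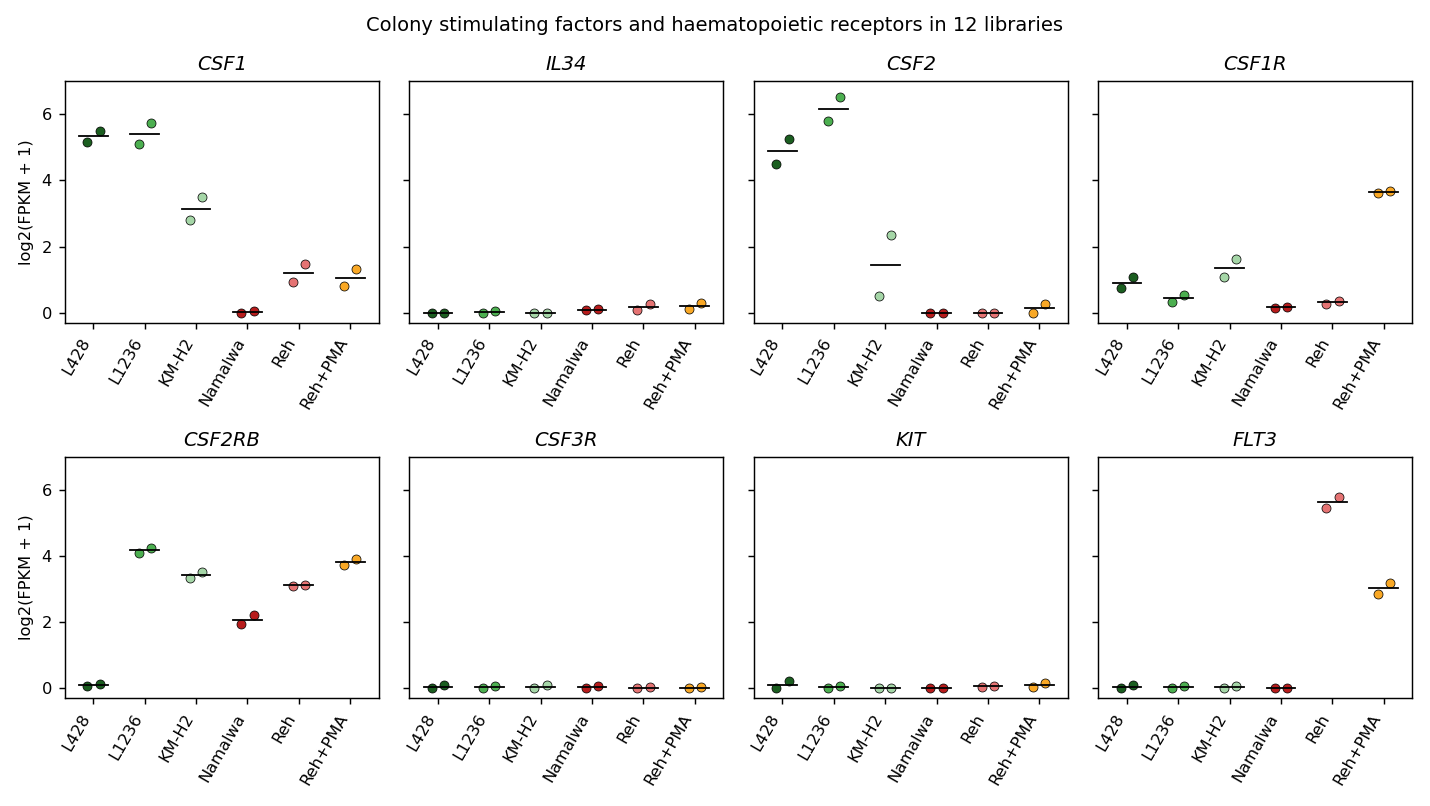
Level of each of the 8 genes as log2(FPKM + 1) on the vertical axis in the 6 groups on the horizontal axis; each point is 1 library and each line the mean of 2. CSF1 and CSF2 stood highest in L428 and L1236, CSF1R in Reh+PMA and FLT3 in Reh, whereas IL34, CSF3R and KIT stayed near 0.

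CSF1, the macrophage growth factor, was the ligand shared by the 3 Hodgkin lines. Its FPKM was 34.8 and 44.2 in L428, 33.0 and 51.8 in L1236, and 5.99 and 10.2 in KM-H2. It was 0.91 and 1.77 in Reh, 0.75 and 1.49 in Reh+PMA, and 0 and 0.03 in Namalwa. Every Hodgkin library was above every control library. By limma on log2(FPKM + 1), with p-values adjusted over the 14679 genes tested, CSF1 was higher than in Reh by 4.13 (SE 0.33, adjusted p = 1.08e-05) in L428, by 4.20 (adjusted p = 8.97e-06) in L1236 and by 1.95 (adjusted p = 0.0013) in KM-H2. The ratios of mean FPKM to Reh were 29.5, 31.6 and 6.05. Against Namalwa, the same log2 differences were 5.31, 5.38 and 3.12. L428 and L1236 could not be ordered for CSF1, with a difference of -0.07 (95% interval -0.83 to 0.68), while KM-H2 was below both.

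CSF2, the granulocyte-macrophage growth factor, had the highest level of any of the 8 genes. It was at 54.8 and 91.0 FPKM in L1236 and at 21.6 and 37.4 FPKM in L428. In KM-H2 its 2 libraries held 0.43 and 4.08 FPKM, the widest gap between libraries seen for any of the 5 tested genes. It was listed at 0 in both libraries of Namalwa and of Reh, and at 0 and 0.21 FPKM in Reh+PMA. Hodgkin and control libraries did not overlap. On the log2(FPKM + 1) scale CSF2 was higher than in Reh by 6.16 in L1236 (SE 0.53, limma adjusted p = 1.41e-05) and by 4.88 in L428 (adjusted p = 7.11e-05), and no fold is given against a group listed at 0. The difference of KM-H2 from Reh was 1.43, with a limma adjusted p of 0.0535. That of KM-H2 from Namalwa was also 1.43, at 0.0561. Both passed the threshold with a pseudocount of 0.25 (difference 2.78). Without the KM-H2 library of column 0 both differences were 2.34, and without that of column 1 they were 0.52. Their size thus turned on which KM-H2 library was kept. L1236 and L428 differed by 1.28 in CSF2, which did not pass (limma adjusted p = 0.0999) but did when either KM-H2 library was left out of the fit (0.0145 and 0.0147).

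IL34, the other ligand of CSF1R, was listed at 0 in both libraries of L428 and KM-H2 and at 0 and 0.03 FPKM in L1236. In the control groups it was 0.06 and 0.07 FPKM in Namalwa, 0.06 and 0.19 FPKM in Reh and 0.08 and 0.23 FPKM in Reh+PMA. Every value was below 1 FPKM, so no level of IL34 was read as expression.

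CSF1R showed its highest level in PMA-treated Reh and low levels in the Hodgkin lines. Its FPKM was 0.67 and 1.10 in L428, 0.25 and 0.46 in L1236, and 1.13 and 2.05 in KM-H2. It was 0.11 and 0.13 in Namalwa and 0.20 and 0.29 in Reh, and 11.2 and 11.8 in Reh+PMA. The Reh+PMA libraries lay above every other library, and the lowest KM-H2 library above every L428, L1236, Namalwa and untreated Reh library. KM-H2 was higher than Reh by 1.04 on the log2(FPKM + 1) scale (SE 0.21, limma adjusted p = 0.00301) and than Namalwa by 1.19 (adjusted p = 0.00153), with ratios of mean FPKM of 6.53 and 13.1. L428 was higher than Reh by 0.59 (adjusted p = 0.0462) and than Namalwa by 0.74 (adjusted p = 0.0178), below the 2-fold part of the call rule. L1236 differed from Reh by 0.12 (95% interval -0.35 to 0.58) and from Namalwa by 0.27, and neither passed.
The KM-H2 call against Reh fell under the 2-fold limit after quantile normalization (0.83), without the KM-H2 library of column 1 (0.78) and without the Reh library of column 1 (0.99), and that against Namalwa after quantile normalization (0.76) and without the same KM-H2 library (0.93). With a pseudocount of 0.25 in place of 1, L428 passed the call rule against both control lines (1.18 and 1.58), so its call depended on the pseudocount.

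CSF2RB, the signalling chain shared by the receptors of CSF2, IL3 and IL5, separated L428 from all other groups. It was at 16.2 and 18.1 FPKM in L1236 and 9.10 and 10.5 FPKM in KM-H2. In L428 it was at 0.06 and 0.10 FPKM. It was at 2.82 and 3.61 FPKM in Namalwa, 7.59 and 7.81 FPKM in Reh and 12.3 and 13.9 FPKM in Reh+PMA. The L428 libraries lay below all others, and no 2 groups overlapped. On the log2(FPKM + 1) scale L428 was lower than Reh by 3.01 (SE 0.19, limma adjusted p = 2.20e-06) and lower than Namalwa by 1.96 (adjusted p = 3.87e-05), and its mean FPKM was 97.5-fold and 40.7-fold below theirs. L1236 was higher than Reh by 1.06 (adjusted p = 0.00164) and than Namalwa by 2.11 (adjusted p = 2.25e-05), and KM-H2 was higher than Namalwa by 1.36 (adjusted p = 0.000377) but differed from Reh by only 0.31 (95% interval -0.12 to 0.73). The L1236 call against Reh was lost, at 0.98, when the L1236 library that stood apart was left out.

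FLT3, the progenitor receptor, was a gene of Reh cells. Its level was 43.0 and 54.6 FPKM in untreated Reh and 6.25 and 8.10 FPKM in Reh+PMA. In the Hodgkin lines and Namalwa it was between 0 and 0.08 FPKM. The differences of the Hodgkin lines and Namalwa from Reh were -5.63 to -5.57 on the log2(FPKM + 1) scale, each past the threshold by limma, and could not be told apart from each other. No ratio is given for them, since at least 1 library of each was listed at 0.

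CSF3R and KIT are receptors of the granulocyte and of the stem and mast cell lineages. Each was listed at 0 in at least 1 library of L428, L1236, KM-H2 and Namalwa. In Reh, KIT held 0.04 and 0.06 FPKM and CSF3R 0 and 0.03 FPKM, and in Reh+PMA they held 0.03 and 0.12 FPKM and 0 and 0.02 FPKM. None of these values reached the level at which a gene was read as present.

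With the line as the unit, 3 Hodgkin lines against 2 untreated control lines, the exact two-sided permutation test cannot go below p = 0.1. Mean log2(FPKM + 1) of CSF1 was 4.63 in the Hodgkin lines and 0.61 in the control lines (exact permutation p = 0.1), with no overlap. CSF2 averaged 4.16 against 0 and CSF1R 0.90 against 0.24, also without overlap of the line means, each with an exact permutation p of 0.2. IL34 went the other way, 0.006 against 0.13 (exact permutation p = 0.1), also without overlap, though all its values were below 1 FPKM. The share of all genes without overlap, of line means or of libraries, was not computed, so it is not known how common such separation is. CSF2RB averaged 2.57 against 2.59 (exact permutation p = 1), with L428 below and L1236 and KM-H2 above both control lines.

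Counted over the 8 genes, the calls in each comparison were read beside the share of all genes called. A call needed a limma adjusted p below 0.05 and a difference of at least 2-fold. The shares of all genes are over genes tested, and 5 of the 8 were tested, so 4 of 8 is 4 of the 5 tested and 3 of 8 is 3 of the 5. In L428 against Reh, CSF1 and CSF2 were higher and CSF2RB and FLT3 lower, 4 of 8, where 30.3% of all genes tested were called. In L428 against Namalwa, CSF1 and CSF2 were higher and CSF2RB lower, 3 of 8, beside 31.3%. L1236 held CSF1, CSF2 and CSF2RB higher than both control lines and FLT3 lower than Reh, which made 4 of 8 beside 30.7% against Reh and 3 of 8 beside 29.5% against Namalwa. KM-H2 held CSF1 and CSF1R higher than both, CSF2RB higher than Namalwa and FLT3 lower than Reh, 3 of 8 beside 32.7% against Reh and 3 of 8 beside 30.4% against Namalwa. In Namalwa against Reh, CSF1, CSF2RB and FLT3 were lower, 3 of 8 beside 19%. The CSF1 call there was lost without either Namalwa library or the Reh library of column 0 (limma adjusted p = 0.103 to 0.208), and the CSF2RB call without the Namalwa library of column 1 (difference -0.91). The comparisons with 1 control line share its libraries and are not independent of each other.
The median difference of the 5 tested genes was 0.59 in L428, 1.06 in L1236 and 1.04 in KM-H2 against Reh, beside 0 over all genes in each. Against Namalwa it was 0.74 in L428 and 2.11 in L1236, beside 0 in both, and 1.36 in KM-H2, beside 0.02. In Namalwa against Reh it was -1.05, beside 0. Among the Hodgkin lines it was -0.07 in L428 against L1236 and -0.02 in KM-H2 against L428, beside 0 in both, and -0.75 in KM-H2 against L1236, beside 0.002, and in Reh+PMA against Reh it was 0.14, beside -0.03. All of these genes except CSF2RB passed the filter through the groups where they were high.

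**Figure D2:**
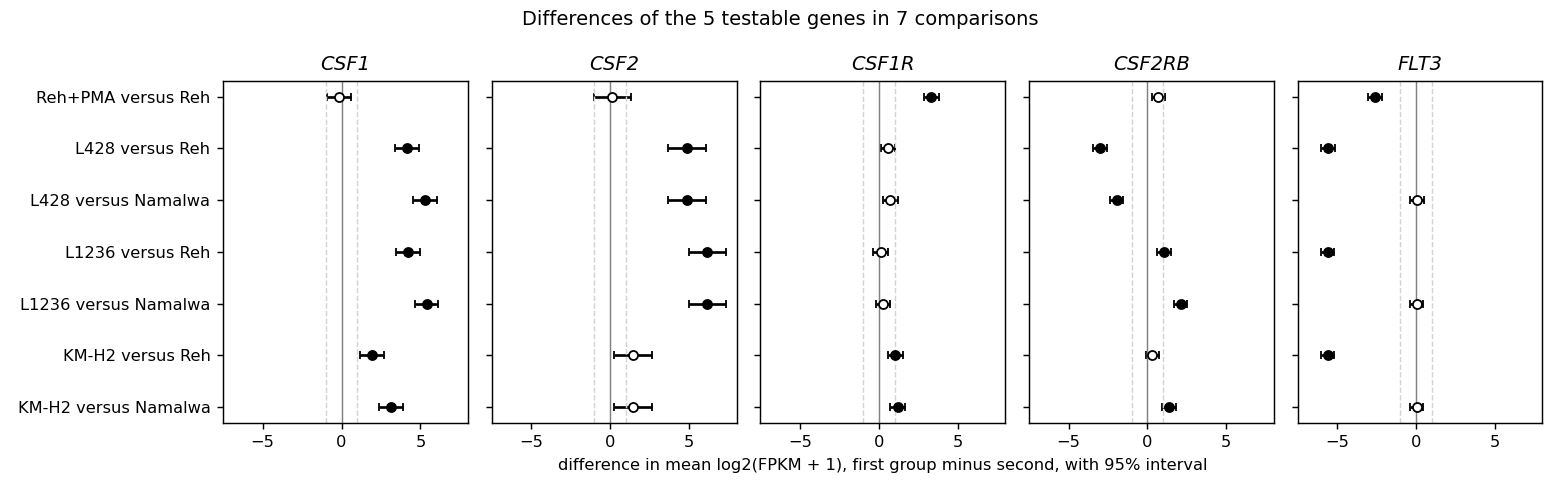
Difference in mean log2(FPKM + 1), first group minus second, on the horizontal axis for the 5 tested genes in 7 comparisons; bars are 95% intervals, filled points were called, and dashed lines mark a 2-fold difference. CSF1 lay to the right in all 6 Hodgkin comparisons, CSF2RB to the left only in the L428 rows, and CSF1R farthest to the right in Reh+PMA against Reh.

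Among the Hodgkin lines, L428 and L1236 were close in CSF1 and were set apart by CSF2RB, which was lower in L428 by 4.07 on the log2(FPKM + 1) scale (SE 0.19, limma adjusted p = 7.37e-07), 217-fold in mean FPKM. This was the only one of the 8 genes called between these lines, beside 21.9% of all genes, and the difference was -4.01 without the 2 libraries that stood apart. KM-H2 was lower than L428 in CSF1 by 2.18 (adjusted p = 0.000861) and in CSF2 by 3.45 (adjusted p = 0.000845), and higher in CSF2RB by 3.32 (adjusted p = 2.16e-06), 3 of 8 beside 26.6%. Compared with L1236, KM-H2 was lower in CSF1 by 2.26 and in CSF2 by 4.73, 2 of 8 beside 26.6%. CSF1R did not pass the call rule between any 2 Hodgkin lines, though KM-H2 stood 0.92 above L1236 (adjusted p = 0.00711), under the 2-fold limit, and passed it with a pseudocount of 0.25 (1.59), without the KM-H2 library of column 0 (1.18) and without the L1236 library of column 0 (1.03).

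With PMA, an activator of protein kinase C, CSF1R rose and FLT3 fell in Reh cells. CSF1R rose by 3.33 on the log2(FPKM + 1) scale (SE 0.21, limma adjusted p = 1.02e-05), from a mean of 0.24 to 11.5 FPKM, a ratio of 47.1. FLT3 fell by 2.61 (SE 0.19, adjusted p = 2.29e-05), and its mean was 6.81-fold lower. Of 6 precursor B cell markers, 3 fell in the same comparison, with differences of -5.53 for RAG1, -4.67 for RAG2 and -3.20 for IGLL1. The summed level of the list was 1111 and 1197 FPKM in Reh and 124 and 131 FPKM in Reh+PMA, and its part in the FLT3 result was not tested. FLT3 in both Reh+PMA libraries still lay above its level in every Hodgkin and Namalwa library. CSF2RB stood 0.69 higher (adjusted p = 0.0217), a ratio of 1.70 that did not reach the 2-fold limit. CSF1 differed by -0.14 (95% interval -0.90 to 0.61) and CSF2 by 0.14 (95% interval -1.05 to 1.33), and neither passed. Thus 2 of 8 genes were called, beside 22.2% of all genes tested. Both calls had the same direction and passed in every alternative tried. Neither gene was among the 79 that split the libraries, though that split cannot be told apart from PMA here. Of 6 Hodgkin cell markers, 2 were higher in the same comparison and 4 were not called. TRAF1 went from 0.80 and 1.02 FPKM to 14.8 and 18.5 FPKM and MIR155HG from 1.37 and 2.27 FPKM to 48.5 and 61.2 FPKM. Of 8 B cell markers, BLK, CD79B, EBF1 and PAX5 were lower by limma, CD22 was higher and 3 were not called. The part of the Hodgkin and B cell markers in the CSF1R and FLT3 results was not tested.

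CSF1R in Reh+PMA was also above each Hodgkin line, by 2.29 against KM-H2 (limma adjusted p = 1.95e-05), 2.74 against L428 and 3.21 against L1236, with ratios of mean FPKM of 7.21, 13.0 and 32.4. Below Reh+PMA, no neighbours in the order KM-H2, L428, L1236, Reh and Namalwa differed past the threshold for CSF1R. For CSF1 the order was L1236, L428, KM-H2, Reh, Reh+PMA and Namalwa, and L1236 could not be told from L428, nor Reh from Reh+PMA. For CSF2RB, L1236, Reh+PMA, KM-H2 and Reh formed a run in which no neighbours differed, above Namalwa and then L428.

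The gene next to CSF1R rose with it. PDGFRB, the receptor of PDGF-B that ends 466 bases before the distal CSF1R start, was at 2.68 and 3.07 FPKM in Reh and 32.3 and 41.5 FPKM in Reh+PMA. It was between 0 and 0.09 FPKM in all Hodgkin and Namalwa libraries, including KM-H2, where CSF1R was above 1 FPKM. PDGFRB rose by 3.28 on the log2(FPKM + 1) scale (SE 0.16, limma adjusted p = 3.18e-06). HMGXB3, which lies on the other side of CSF1R on the opposite strand, went from 15.3 and 15.9 FPKM to 38.9 and 45.4 FPKM, a rise of 1.37 (adjusted p = 0.000955). Of the 6 neighbours listed, SLC26A2 and TIGD6 were tested and not called, CAMK2A was at 0.43 and 0.49 FPKM in Reh+PMA and below 0.02 elsewhere, and CDX1 was listed at 0. The sources used here do not say whether fragments were counted by strand, so reads of CSF1R and HMGXB3 may not be separated. PDGFRB lies on the minus strand, as CSF1R does, so strand does not tell their reads apart.

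**Figure D3:**
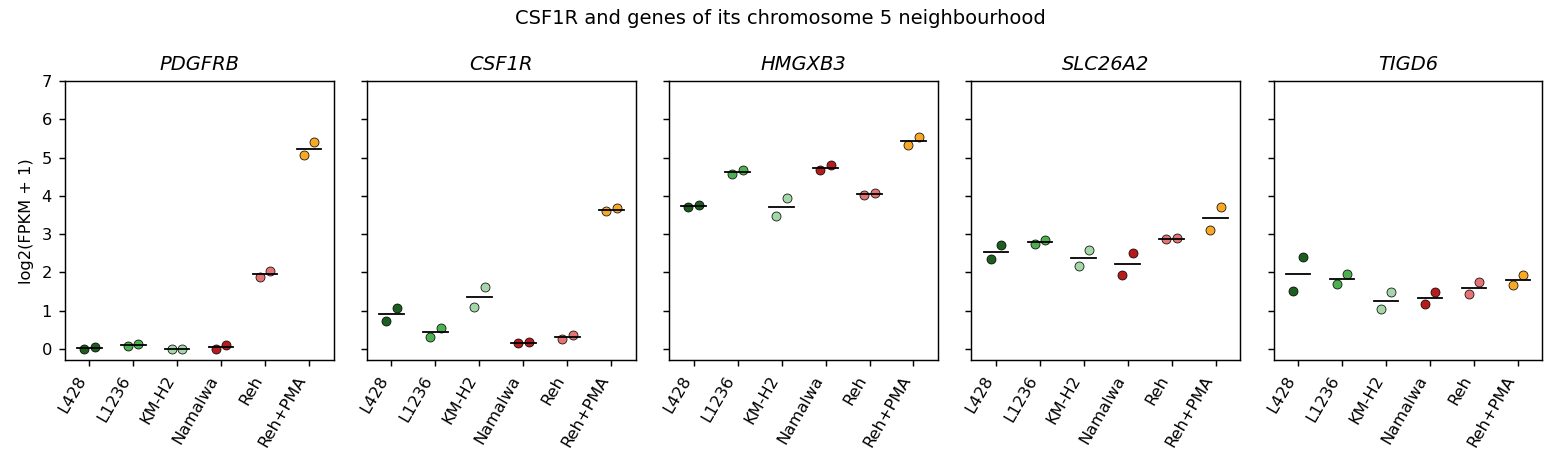
Level of CSF1R and 4 genes near it on chromosome 5 as log2(FPKM + 1) on the vertical axis in the 6 groups; each point is 1 library and each line the mean of 2. PDGFRB was at 32.3 and 41.5 FPKM in Reh+PMA and near 0 in the Hodgkin lines, whereas SLC26A2 and TIGD6 were in every group.

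In the family of type III receptor tyrosine kinases (CSF1R, KIT, FLT3, PDGFRA and PDGFRB), the receptors were spread over different lines. PDGFRA, the other PDGF receptor, was at 11.7 and 15.1 FPKM in KM-H2 and below 0.06 FPKM elsewhere. It was 3.83 above Reh on the log2(FPKM + 1) scale. PDGFRA passed the filter only through KM-H2, so it could only be higher there, and no p-value is given. KM-H2 thus held PDGFRA and a low level of CSF1R, Reh held FLT3 and PDGFRB, and Reh+PMA held CSF1R, FLT3 and PDGFRB. Namalwa and L1236 held none of the 5 at 1 FPKM in both libraries, and neither did L428, in which CSF1R reached 1 FPKM in 1 library.

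Presence of ligand and receptor in the same line was then read for 8 known pairs, a gene being present where both libraries of a group held at least 1 FPKM. The receptors of the CSF2 and IL3 pairs include genes listed at 0 in every library, which left 36 of 48 combinations of pair and group that could be read. Of these, 3 were complete: CSF1 with CSF1R in KM-H2, and FLT3LG with FLT3 in Reh and in Reh+PMA. L428 and L1236 held CSF1 without CSF1R at this level, and Reh+PMA held CSF1R with CSF1 at 0.75 and 1.49 FPKM. The ratio of mean CSF1 to mean CSF1R was 119.8 in L1236, 44.7 in L428, 5.09 in KM-H2, 5.50 in Reh and 0.097 in Reh+PMA. A minimum of 0.3 FPKM added CSF1 with CSF1R in L428 and in Reh+PMA, for 5 pairs, and a minimum of 3 FPKM left 1, FLT3LG with FLT3 in Reh.

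**Figure D4:**
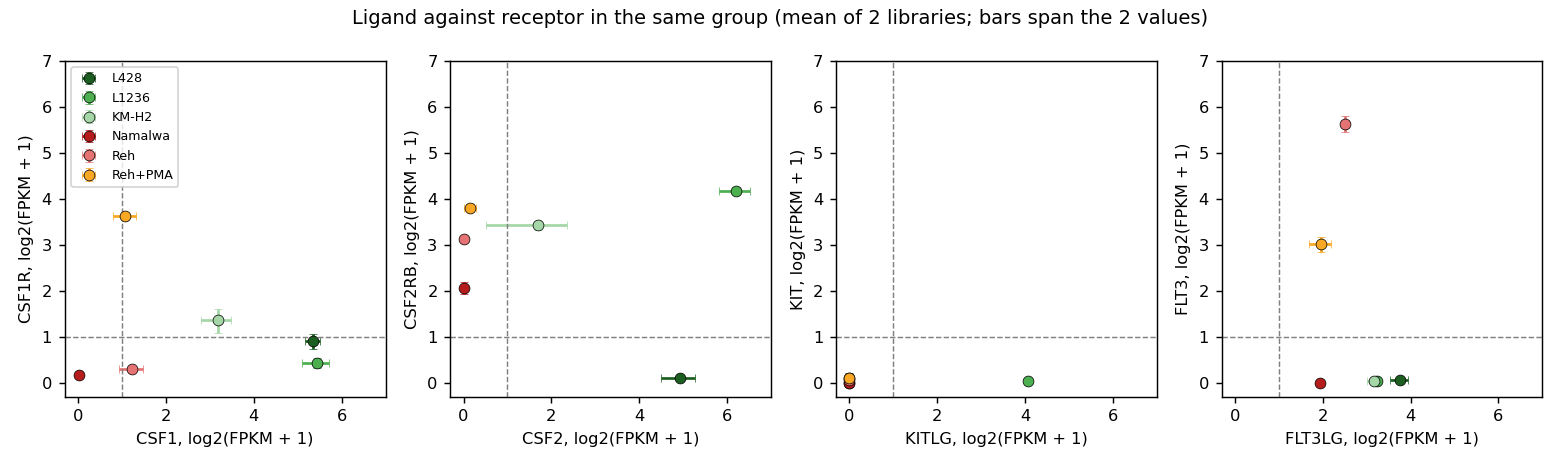
Mean ligand level on the horizontal and mean receptor level on the vertical axis, both as log2(FPKM + 1), for 4 pairs in the 6 groups; bars span the 2 libraries and dashed lines mark 1 FPKM. The KM-H2 point alone lies in the upper right for CSF1 and CSF1R with both of its libraries, and the Reh and Reh+PMA points for FLT3LG and FLT3.

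FLT3LG, the ligand of FLT3, was present in every group, from 2.25 FPKM in a Reh+PMA library to 14.4 FPKM in an L428 library. The ratio of mean FLT3LG to mean FLT3 was 0.096 in Reh and 0.404 in Reh+PMA, with FLT3LG itself differing by -0.56 (limma adjusted p = 0.103). KITLG, the ligand of KIT, was at 15.5 and 16.1 FPKM in L1236 and listed at 0 in every other library, while KIT was at 0 and 0.05 FPKM in L1236. CSF3, the ligand of CSF3R, was at most 0.08 FPKM.

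The chains that share CSF2RB were split between the Hodgkin lines. IL5 was at 21.4 and 34.8 FPKM in L428, listed at 0 in L1236 and at 0 and 1.30 FPKM in KM-H2. IL5RA, the private chain of the IL5 receptor, was at 27.4 and 58.8 FPKM in L428 and 24.4 and 28.5 FPKM in L1236, and at most 1.07 FPKM elsewhere. L428 thus held IL5 and IL5RA without CSF2RB, and L1236 held IL5RA and CSF2RB without IL5. IL3 was listed at 0 in all libraries. CSF2RA and IL3RA were also listed at 0 in every library, but so were 14 of the 15 protein-coding genes of the same pseudoautosomal region in the table, CD99 and SLC25A6 among them, and the highest value of the other was 0.0387 FPKM. The CSF2 and IL3 pairs therefore could not be assessed from these values.

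Of the 14 partner genes (ligands, receptor chains and their relatives), 6 passed the filter. In L428, 3 were higher than in Reh (IL5, IL5RA and FLT3LG) and none lower, where 30.3% of all genes were called. L1236 had 2 higher (KITLG and IL5RA) and 2 lower (SDC1 and EPOR), beside 30.7% of all genes, and KM-H2 had SDC1 lower, beside 32.7%. Against Namalwa none was lower, with 3 higher in L428 and in L1236 and 1 in KM-H2, beside 31.3%, 29.5% and 30.4%. IL5, IL5RA and KITLG passed the filter only through Hodgkin lines where they were high, so they could only be higher there. SDC1 reached 1 FPKM in both libraries only in Reh, which bears on its calls as lower. In Reh+PMA against Reh, SDC1 was lower by 1.71 (limma adjusted p = 0.00438) and no partner was higher, beside 22.2%.

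The signalling genes downstream of these receptors, 24 listed and 23 tested, moved in both directions with PMA, 4 higher and 4 lower where 22.2% of all genes were called, with a median difference of 0.13 beside -0.03 over all genes. SPRY2, a feedback inhibitor of receptor tyrosine kinase signalling, went from 5.47 and 6.97 FPKM to 406 and 491 FPKM, a rise of 5.96 (limma adjusted p = 5.18e-07). DUSP6, a phosphatase of ERK, rose by 2.17 (adjusted p = 0.00317), and STAT3 and PTPN6 were the other 2 that rose. SOCS2, a target of STAT5, fell by 2.12 (adjusted p = 0.000321) and the adaptor GAB2 fell by 1.86 (adjusted p = 0.00928), with STAT5A and INPP5D also lower. PLCG2, also on this list, was 1 of the 79 genes that split the libraries and was not called.

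In the Hodgkin lines, STAT5A, SOCS1 and SOCS3 of this list were higher than both control lines in each of L428, L1236 and KM-H2. The share of all genes that met this joint rule was not computed, so the rule is used only to name these genes. STAT5A, a transcription factor used by CSF2RB, was at 73.0 and 90.2 FPKM in L428, 23.0 and 25.0 FPKM in L1236 and 31.1 and 31.5 FPKM in KM-H2. It was between 0.96 and 4.54 FPKM in the control libraries, with no overlap. SOCS1, an inhibitor of JAK kinases, was 4.71 above Reh in L428 (limma adjusted p = 1.37e-05), and SOCS3 4.59 above Reh in L1236 (adjusted p = 8.49e-06). CISH, another STAT5 target, was 4.05 above Reh in L428 (limma adjusted p = 0.000315) and 3.10 above it in L1236 (adjusted p = 0.00162). It differed by 0.69 in KM-H2 (adjusted p = 0.354). CISH and SOCS3 passed the filter only through Hodgkin lines where they were high, so they could only be higher there. Their p-values therefore add no support to the values. SOCS2, also a STAT5 target, was lower than in Reh by 1.87 in L428 (limma adjusted p = 0.000228) and by 1.14 in L1236 (adjusted p = 0.00437) and higher by 1.06 in KM-H2, and it was higher than in Namalwa in all 3 lines. In all, 8 of the 23 were higher and 3 lower in L428 against Reh, 7 and 6 in L1236, and 5 and 9 in KM-H2, where 30.3%, 30.7% and 32.7% of all genes were called, with medians of 0.25, -0.07 and -0.09 beside 0 over all genes. Against Namalwa the counts were 11 and 2, 10 and 5, and 6 and 5, where 31.3%, 29.5% and 30.4% of all genes were called.

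Of 8 regulators linked to the CSF1R gene, 1 rose and 2 fell with PMA, where 22.2% of all genes were called. EGR2, a zinc finger factor of macrophages, went from 0.04 and 0.16 FPKM to 76.0 and 85.6 FPKM, a rise of 6.22 (limma adjusted p = 1.74e-06). PAX5, the B-cell factor known to repress CSF1R, fell by 1.97 (adjusted p = 0.0045), and CBFA2T3, a corepressor, fell by 1.98 (adjusted p = 0.000122). SPI1, which encodes PU.1, was listed at 0 in all Hodgkin libraries and was at 22.4 and 24.9 FPKM in Reh, 13.9 and 14.9 FPKM in Reh+PMA and 33.6 and 33.8 FPKM in Namalwa. CBFA2T3 was lower in all 6 comparisons of a Hodgkin line with a control line, by 1.08 to 2.69. PAX5 was lower in these comparisons as well, by 1.13 in L1236 against Reh and by 5.42 in L428 against Namalwa, and L1236 kept 19.8 and 33.8 FPKM. RUNX1 was lower than in Reh in L1236 (by 3.05) and KM-H2 (by 2.16) and lower than in Namalwa in L1236 (by 1.29). MITF was higher than in both control lines in L428 (by 1.56) and KM-H2 (by 1.87), and EGR2 in L428 only (by 1.68 and 1.63). CEBPA was lower than in Namalwa in L428 and KM-H2, both by 1.61. MITF passed the filter only through L428 and KM-H2, and CEBPA only through Namalwa, so these differences could only take that direction.

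Markers of other blood cells were read beside these genes. Of 7 monocyte or macrophage markers (CD14, ITGAM, FCGR1A, CD68, AIF1, LYZ and CD163), 4 were at 1 FPKM or more in both KM-H2 libraries (CD14, ITGAM, CD68 and AIF1), against 1 in L428 and Namalwa and 3 in Reh and Reh+PMA. The summed level of the list was 115 to 175 FPKM in Reh and 89.3 to 179.6 FPKM in Reh+PMA, most of it AIF1, while CD14 was below 0.14 FPKM in both and CD163 was at or near 0. In KM-H2, CD14 was at 4.56 and 5.79 FPKM with a summed level of 24.0 to 26.6 FPKM, and its part in the CSF1R level there was not tested. Of 4 mast cell markers, 1 reached 1 FPKM in both libraries of Reh+PMA and 1 in L1236. TPSAB1 was at 19.2 and 39.4 FPKM in Reh+PMA and listed at 0 elsewhere. FCER1A was at 293 and 295 FPKM in L1236, the line with KITLG, where CPA3 and MS4A2 were listed at 0. Granulocyte markers at 1 FPKM in both libraries were 0 of 6 in the Hodgkin lines and Namalwa and 1 of 6, MPO, in Reh and Reh+PMA, and MPO was at 0 and 5.35 FPKM in L428. Of 6 T or NK cell markers, 2 reached 1 FPKM in both libraries of KM-H2, the line with CSF1 and CSF1R. CD3D was there at 13.5 and 22.5 FPKM and CD3G at 2.85 and 3.25 FPKM. Both passed the filter only through KM-H2, so they could only be higher there, and no test of them is given. In KM-H2, CD2 was at 0.78 and 1.01 FPKM, CD3E at 0 and 0.20 FPKM, and GNLY was listed at 0. NKG7 was at 0 and 0.51 FPKM in KM-H2, lower than in Reh by 1.69 (limma adjusted p = 0.000628). NKG7 was at 2.82 and 3.10 FPKM in Reh and 8.19 and 12.7 FPKM in Reh+PMA (limma adjusted p = 0.00274). The part of these markers in the levels of the 8 genes was not tested.

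The genes whose 6 group means of log2(FPKM + 1) followed each gene most closely by Pearson correlation are given as a description over 6 points that share the libraries, without a test. They were BATF3, IFIH1 and ARPC4-TTLL3 for CSF1 (0.99 each) and TNKS2, MAK16 and HTATSF1 for CSF1R. For CSF2 they were HCG23, TBC1D22B and SOCS3, for CSF2RB MESDC2, ZCCHC11 and GPSM3 (0.97 to 0.99), and for FLT3 KCNJ4, ALDH7A1 and PABPC4L. BATF3, a factor high in Hodgkin cells, had mean levels of 202, 359.7 and 52.0 FPKM in L428, L1236 and KM-H2 and of 0.73, 4.85 and 3.36 FPKM in Namalwa, Reh and Reh+PMA. The number of genes this close varied: 146 genes correlated above 0.95 with CSF1, 62 with CSF1R, 146 with CSF2 and 191 with FLT3, but 12 with CSF2RB.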

How the data were processed

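RNA-Seq libraries of 6 groups, 2 each, were analysed from 1 table of the whole series. The deposited values are FPKM per gene, made by the authors with TopHat2 2.0.11 and Cuffnorm 2.2.1 on hg19, as the submitters' processing notes name them. The gene annotation and strand setting of the counting are not given in the sources used here. Columns name a group and a number that does not match the numbers of the titles, so a column stands for its group only. No counts are held, so no count test, interval or detection limit was computed, and depth is known only relative to another library.

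Values were taken as log2(FPKM + 1). Genes with at least 1 FPKM in at least 2 libraries (14679) were fitted with limma 3.58.1 in R 4.3.3, with an intensity trend, all 12 libraries and 6 residual degrees of freedom, and p-values were adjusted by Benjamini and Hochberg over all genes. A call needed an adjusted p below 0.05 and a log2 difference of at least 1. Differences on this scale understate the change of low genes. The script was tested on simulated data. The alternatives were other pseudocounts, filters, scalings, variance priors, samples in the fit, a replicate block and each library left out. Positions come from the GENCODE annotation lifted to hg19.

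Named genes were all 8 members, their partners where present or where a pair turns on them, the genes near CSF1R, its family, up to 4 signalling genes by largest difference, the regulators called, and the 3 genes most alike each member. STAT3, PTPN6, STAT5A, INPP5D, SOCS1, SOCS3, CISH and PLCG2 fell outside this rule in some comparisons and were then named after their values were seen. The members and lists were chosen with earlier results of these data known. A monocyte or macrophage marker of the list is not reported here.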

Additional observations from a re-analysis of the deposited data

Results flagged for a closer look

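The Hodgkin lines, set against the same control libraries, differed from each other in 3 of the 8 genes by a direct test of the difference (limma on log2(FPKM + 1), 2 libraries a line). CSF2RB was lower in L428 than in L1236 (-4.07, adjusted p = 7.36e-07) and higher in KM-H2 than in L428 (3.32, adjusted p = 2.16e-06). CSF1 was lower in KM-H2 than in L428 (-2.18, adjusted p = 0.000861) and than in L1236 (-2.26, adjusted p = 0.000661). CSF2 was lower in KM-H2 than in L428 (-3.45, adjusted p = 0.000845) and than in L1236 (-4.73, adjusted p = 0.000109). Of all genes, 21.9% were called between L428 and L1236 and 26.6% in each comparison with KM-H2. With 2 libraries a group, no library could be tested as an outlier.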

How the results depend on the processing

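Alternatives were run for 11 comparisons, and not for Reh+PMA against the Hodgkin lines or Namalwa. In these 11, no tested difference of the 8 genes changed direction past the threshold, and every FLT3 call was kept. The number of the 8 genes called stayed within 1.5 times its main value except in these cases. Between Namalwa and Reh 1 gene was called after quantile normalization and 1 to 3 with a library left out (main 3); between L428 and L1236, 1 to 2 with a library left out (main 1); and between KM-H2 and L1236, 4 without a fold threshold (main 2). Genes called over the whole table ran from 1968 to 3395 in Reh+PMA against Reh with a library left out (main 3265), lowest without the Reh+PMA library of column 0 and 2092 without the Reh library of column 0. Between L428 and L1236 they were 1953 without the 2 libraries that stood apart, an alternative chosen after seeing the data, against 3216 with them. Pairs of ligand and receptor present numbered 5 at 0.3 FPKM, 1 at 3 FPKM, 4 by the mean of both libraries and 4 to 5 with 1 library a group (main 3). The cause of these shifts was not tested. With the column number as a replicate block, 3456 genes were called in Reh+PMA against Reh and the number of the 8 genes called was the same in each of the 11; deviations of libraries with the same number correlated at 0.301, 0.427 and 0.681 among the Hodgkin lines and at -0.045 to 0.357 in the other pairs of groups, so the numbers went together among the Hodgkin lines and not across all groups, and no label says what they share. Without counts, depth limits the low genes most, and values near 0 cannot be ordered.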
